A study of Homo sapiens with 4 samples.

Results

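Cathepsins and related lysosomal proteases are described here in MV4-11 cells, a human acute myeloid leukemia (AML) cell line, with and without a knockdown of the transcription factor IRF1. The group holds 10 of the 23622 genes in the deposited table, taken by their symbols: CTSA, CTSB, CTSC, CTSD, CTSH, CTSL, CTSS, CTSZ, TPP1 and LGMN. They were chosen with their response in this same comparison known, so their values are given as a description with no p. The fit over all genes includes them, and the calls it gave are counted below as a description too, not as evidence for a change. All 10 were in the table, and 8 passed the filter on low values, which asked that 2 or more libraries reach a normalized count of 10. A normalized count is the reads of a gene divided by a size factor of its library. CTSL and LGMN did not pass.

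RNA sequencing was performed on 4 libraries of MV4-11 total RNA, 2 labelled NC and 2 labelled sh-IRF1, to compare the transcriptome with IRF1 present and reduced. The labels give the NC libraries no treatment, while the headers of the deposited table and the study name that group sh-NC, a control hairpin. In the sh-IRF1 libraries IRF1 was knocked down with a short hairpin RNA (shRNA), a transcript folded back on itself that the cell cuts into a small RNA guiding the decay of matching messages. The hairpins were delivered by pLKO.1 lentivirus and infected cells were selected with puromycin. The genotype is given as WT for all 4 libraries, a single cell line was used, and the sources used here do not say which hairpin each sh-IRF1 library carried. No source says that the libraries of a group came from separate cultures, so the spread between them may be technical. Each standard deviation (SD) is that spread. Each standard error comes from the limma fit and rests mostly on a variance shared with other genes (43 prior degrees of freedom).

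Lysosomal proteases are made as inactive precursors in the endoplasmic reticulum. Most are tagged with mannose 6-phosphate, carried to the acidic lysosome by receptors for that tag, and cut there to the active form. They differ in the residue that attacks the peptide bond: cathepsin D is an aspartic protease, cathepsin A and tripeptidyl peptidase 1 are serine proteases, and cathepsins B, C, H, L, S and Z and legumain are cysteine proteases. Small inhibitors called cystatins hold the cysteine enzymes in check, but not cathepsin D or cathepsin A. In myeloid cells these enzymes also trim antigens and the invariant chain, and cathepsin C activates the serine proteases stored in granules. Many lysosomal genes carry an E-box of the CLEAR type in their promoters, which is bound by the MiT/TFE transcription factors TFEB, TFE3 and MITF and the related TFEC.

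The libraries held between 17635908 and 18695337 reads. IRF1 (ENSG00000125347) had normalized counts of 785 and 738 in NC and of 430 and 432 in sh-IRF1, so 56.6% of the control level remained (log2 fold change -0.82 with a standard error, SE, of 0.0904, adjusted p = 1.69e-10 in limma). Of its exonic bases 22.9% are shared with the antisense gene IRF1-AS1. All 11 markers on the myeloid list had values, with summed normalized counts of 23504 and 23678 in NC and of 19988 and 19801 in sh-IRF1, most of it FLT3. CD34 was at most 3.08. Its members did not move one way. FLT3 fell from 17401 to 12690 (adjusted p = 2.75e-19 in limma), MPO from 460 to 172 (7.78e-13), CSF1R from 940 to 825 (0.0357) and the scarce CD14 to 6.41 (log2 fold change -2.81, 8.90e-05), while LYZ rose from 1804 to 3247 (3.83e-20) and ITGAM from 142 to 219 (0.0019). CD33, KIT, HOXA9 and MEIS1 did not pass. Of the 5 markers of T or NK cells 2 were analysed and summed to between 971 and 1079, nearly all of it NKG7, with CD3D, CD3E and CD2 not analysed here and CD3G at most 2.81. The B cell list, with 4 of 5 analysed and MS4A1 not, summed to 101 and 130 in NC and to 254 and 315 in sh-IRF1, where CD79A rose (log2 fold change 2.20, adjusted p = 4.46e-12). The erythroid and megakaryocyte list, with 2 of 6 analysed, KLF1 and ITGA2B, summed to 97.5 and 112 in NC and to 52.7 and 43.1 in sh-IRF1, and the list for fibroblasts and epithelium, with 2 of 6 analysed, to between 162 and 211, mostly KRT18. In bulk RNA, fewer cells of a kind and less RNA per cell cannot be told apart, and the part of these marker shifts in the values below was not tested.

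CTSD, CTSA and TPP1 stood well above their NC level in both sh-IRF1 libraries, while the other 5 members that passed the filter lay between 82.6% and 119% of it. CTSB, CTSC and CTSH were slightly higher, and CTSS and CTSZ were lower. CTSS therefore was not alone in running against the rest. All 8 members had groups that did not overlap, 6 higher and 2 lower, beside 69.2% of all genes tested without overlap, 34.2% higher and 35% lower. In limma, with an adjusted p under 0.05, the same 6 and 2 were called, beside 20.3% of the 14120 genes tested called higher and 21.9% called lower. With a log2 fold change beyond 0.5 as well, 3 members remained, all higher, beside 8.27% of all genes higher and 7.56% lower. Nothing was read from these shares, because the members were chosen on this contrast. The median log2 fold change, on the scale of log2(normalized count + 1), was 0.20 over the 8 members and -0.00 over all genes tested.

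**Figure D1:**
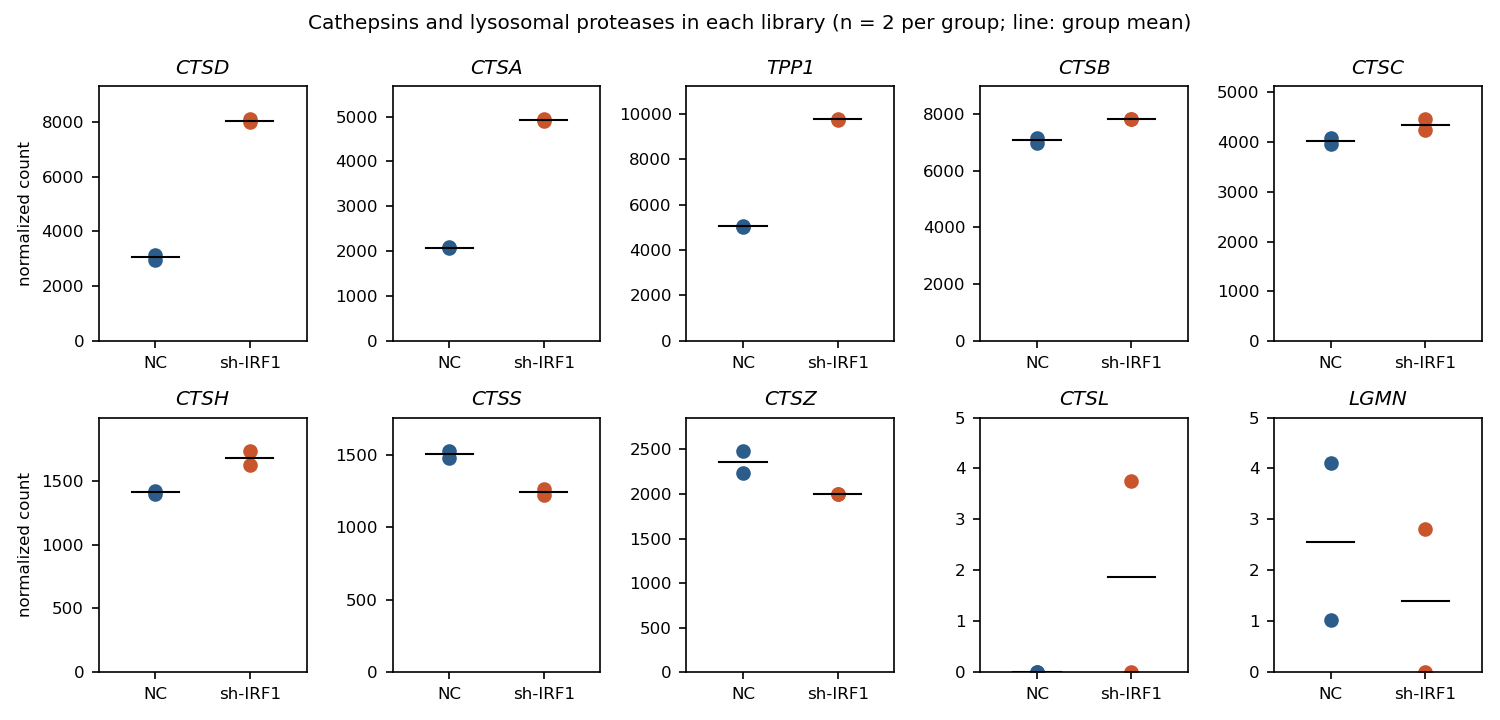
Normalized count of each of the 10 genes in the 2 NC and 2 sh-IRF1 libraries, with 1 point per library, a line at each group mean and every vertical axis starting at 0. CTSD, CTSA and TPP1 show the widest gaps between the groups, CTSS and CTSZ are lower in sh-IRF1, and CTSL and LGMN stay under 5 in every library.

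CTSD (ENSG00000117984) encodes cathepsin D, the main aspartic protease of the lysosome. Its normalized counts were 2971 and 3146 in NC and 8091 and 7989 in sh-IRF1. Both sh-IRF1 libraries lay far above both NC libraries, and the difference was many times the spread within either pair. The means were 3058 ± 124 and 8040 ± 72.4 (SD, n = 2 each), or 263% of the NC level, with a log2 fold change of 1.39 (SE 0.0376). In GENCODE 44 on GRCh38 the gene lies on the minus strand of chromosome 11 from 1752752 to 1764573. Of its exonic bases 48.0% are shared with other genes. A read-through gene, ENSG00000250644, takes 22.9% on the same strand and had normalized counts of 0 and 4.11 in NC and of 5.97 and 6.56 in sh-IRF1. The antisense gene PRADX takes 23.4% and stayed between 2.05 and 15, and the non-coding gene ENSG00000229512 takes 4.42% and stayed between 5.14 and 16.9. The values listed for all 3 neighbours were thus small beside those of CTSD, but how reads in the shared bases were assigned is not given in the sources used here.

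CTSA (ENSG00000064601) encodes cathepsin A, a serine carboxypeptidase that also shields β-galactosidase and neuraminidase in a lysosomal complex. Its normalized counts were 2087 and 2060 in NC and 4895 and 4941 in sh-IRF1. The pairs agreed closely within each group and stood far apart between groups. The means were 2074 ± 19.2 and 4918 ± 32.3 (SD, n = 2 each), or 237% of the NC level, with a log2 fold change of 1.25 (SE 0.0424). CTSA lies on the plus strand of chromosome 20 from 45890144 to 45898949. It shares 21.5% of its exonic sequence. The antisense gene NEURL2 holds 11.1% and had at most 7.19 normalized counts, and PLTP holds 3.81% and had between 115 and 171. A further 6.59% is shared with the non-coding gene ENSG00000271984, for which no value was used here.

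TPP1 (ENSG00000166340) encodes tripeptidyl peptidase 1, which removes tripeptides from the ends of proteins and is deficient in a childhood neuronal ceroid lipofuscinosis. Its normalized counts were 5016 and 5064 in NC and 9734 and 9751 in sh-IRF1. It had the smallest spread of the members on the log2 scale and a wide gap between the groups. The means were 5040 ± 33.6 and 9743 ± 11.9 (SD, n = 2 each), or 193% of the NC level, with a log2 fold change of 0.95 (SE 0.0329). TPP1 lies on the minus strand of chromosome 11 from 6612768 to 6619448 and shares 13.9% of its exonic bases. The non-coding gene ENSG00000285338, for which no value was used here, takes 11.6% on the same strand, and the antisense gene ENSG00000255680 takes 2.28% and had at most 3.08 normalized counts.

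Promoter sequence of these 3 genes, the members with the largest differences, is shown for the E-boxes near the start, the kind of motif to which the CLEAR element belongs. Sequences are from RefSeq on GRCh38.p14, are written 5′ to 3′ on the strand of the gene, and carry every match to CANNTG, the general E-box, in capitals. CTSD and TPP1 are given for the 150 bases before the transcription start, at chr11:1763928-1764077 and chr11:6619423-6619572 on the minus strand. In GENCODE 44, a part of the CTSD stretch (37 bases) and the last 26 bases for TPP1 also lie in annotated exons of the same gene. CTSA is given for the 30 bases from 46 to 17 before the start, at chr20:45891289-45891318 on the plus strand, all of which lie in exons of longer CTSA transcripts.
CTSD: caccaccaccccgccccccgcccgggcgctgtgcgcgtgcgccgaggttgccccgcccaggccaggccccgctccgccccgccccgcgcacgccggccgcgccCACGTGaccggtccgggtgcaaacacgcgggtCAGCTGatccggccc
CTSA: ctgtCACGTGgcgccggagttCACGTGact
TPP1: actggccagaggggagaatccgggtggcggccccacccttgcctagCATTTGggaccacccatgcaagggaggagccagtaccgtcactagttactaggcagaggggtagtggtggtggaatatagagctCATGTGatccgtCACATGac

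Windows from 250 bases before to 50 after the start were searched on both strands, for 7 of the 10 members. CTSB, CTSS and LGMN were not searched. CACGTG, the core of the CLEAR element, was found in CTSD at 47 bases before the start and in CTSA at 42 and at 25 bases before it, so in 2 of 7 members, beside 7.26% of 35116 promoter windows. The longer palindrome TCACGTGA, which contains CACGTG and so overlaps it, was found in CTSA at 26 bases before the start and in no other member, beside 0.98% of windows. TPP1 had neither, but held 5 matches to CANNTG, of which CATGTG at 20 and CACATG at 8 bases before the start lay nearest to it. The general E-box is common, with 68.7% of windows and all 7 members holding it. The core of the interferon response element bound by IRF factors, GAAA followed after 2 free bases by GAAA, was found in 0 of 7 members and in 3.57% of windows, which says only that this pattern is not in these windows. The matches are a description of sequence and not of binding.

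**Figure D2:**
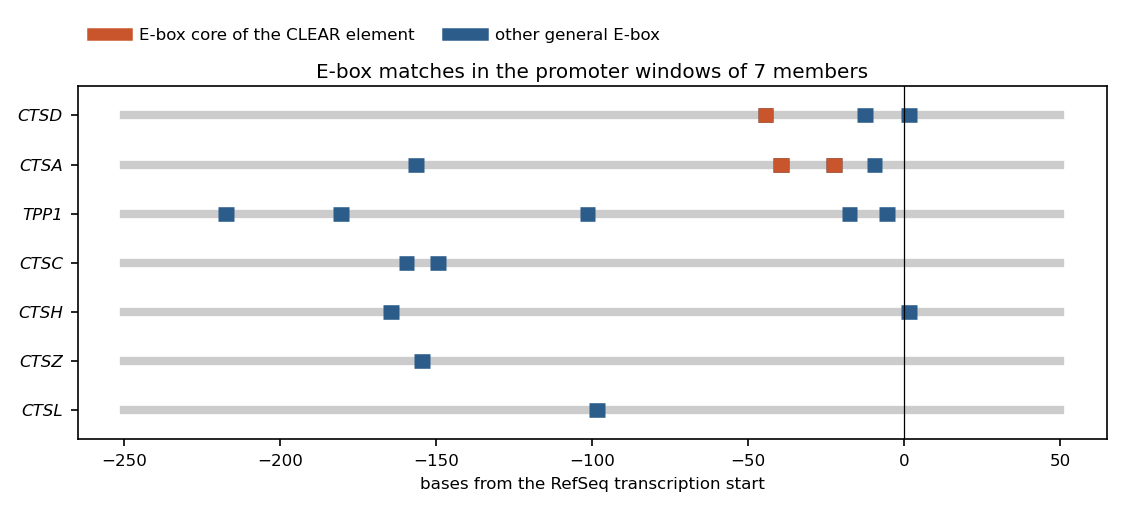
Position of each E-box match in the promoter windows of 7 members, in bases from the RefSeq transcription start, with grey bars for the window from 250 before to 50 after the start, orange blocks for the E-box core of the CLEAR element and blue blocks for other general E-boxes. The CLEAR core appears in CTSD and CTSA within 50 bases of the start, and in none of the other windows.

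Among the papain-type cysteine proteases, 3 were slightly higher in sh-IRF1. CTSB (ENSG00000164733) encodes cathepsin B, which trims proteins both from within and from the end. Its normalized counts were 7158 and 6972 in NC and 7811 and 7803 in sh-IRF1, for means of 7065 ± 131 and 7807 ± 5.90 (SD, n = 2 each) and a log2 fold change of 0.14 (SE 0.0326). The groups did not overlap, but the gap was small beside those of CTSD, CTSA and TPP1. CTSC (ENSG00000109861) encodes cathepsin C, also known as dipeptidyl peptidase 1, with 4078 and 3952 in NC and 4460 and 4245 in sh-IRF1. Its log2 fold change of 0.12 (SE 0.0396) became 0.09 without NC replicate 2 and 0.08 without sh-IRF1 replicate 1. In each of those fits it was no longer called, which left 7 members. CTSH (ENSG00000103811) encodes cathepsin H, an aminopeptidase. It had 1420 and 1394 in NC and 1624 and 1733 in sh-IRF1, or 119% of the NC level, with a log2 fold change of 0.25 (SE 0.0576). The pair of sh-IRF1 libraries was further apart than the NC pair, yet both lay above it. CTSB, CTSC and CTSH share no exonic base with another annotated gene.

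The cysteine proteases CTSS and CTSZ were lower. CTSS (ENSG00000163131) encodes cathepsin S, which completes the trimming of the invariant chain in cells that present antigen and stays active near neutral pH. Its normalized counts were 1528 and 1478 in NC and 1221 and 1261 in sh-IRF1. Both sh-IRF1 libraries lay below both NC libraries, with means of 1503 ± 35.6 and 1241 ± 28.0 (SD, n = 2 each), or 82.6% of the NC level. The log2 fold change was -0.28 (SE 0.0602), and CTSS shares no exonic base with another gene. It lies on the minus strand of chromosome 1 from 150730079 to 150765957. CTSZ (ENSG00000101160) encodes cathepsin Z, also called cathepsin X, a carboxypeptidase. It had 2484 and 2230 in NC and 2004 and 2003 in sh-IRF1. The NC libraries differed from each other by 3.73 times their counting error, the widest replicate gap among the members, while the sh-IRF1 libraries were nearly equal. The means were 2357 ± 180 and 2004 ± 0.773 (SD, n = 2 each), or 85.0% of the NC level. The log2 fold change of -0.23 (SE 0.0517) became -0.15 without NC replicate 1. CTSZ also shares 31.7% of its exonic bases with the antisense gene NELFCD, whose normalized counts of 2290 and 2268 in NC and of 2428 and 2358 in sh-IRF1 were of the same size as its own, so its reads could not be assigned with certainty unless strand was used in counting.

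CTSL and LGMN had almost no reads. CTSL (ENSG00000135047), which encodes cathepsin L, had 0 reads in both NC libraries and 0 and 4 reads in sh-IRF1. LGMN (ENSG00000100600), which encodes the asparagine-specific protease legumain, had 4 and 1 reads in NC and 0 and 3 in sh-IRF1. The groups overlapped for both genes, no library held more than 4 reads of either, and no fold change is given. In the fit without the filter neither gene was called.

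The members with the 3 largest differences are the aspartic protease and the 2 serine proteases, with log2 fold changes from 0.95 to 1.39. The 5 cysteine proteases that passed the filter lay between -0.28 and 0.25. This division by catalytic class is stated for the members only, was noticed after the values were seen and was not tested. Outside the members, the serine carboxypeptidases SCPEP1 and PRCP stood at 0.01 and 0.66, and the cysteine cathepsin CTSO at 0.56. Of the other peptidases tested, described below, DPP7 stood at 0.17, CPQ at 0.90 and NAPSA at 0.23. CTSF and CTSV stood at 0.38 each, and CTSK and CTSW at -1.24 each. These cathepsins and NAPSA had low counts.

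**Figure D3:**
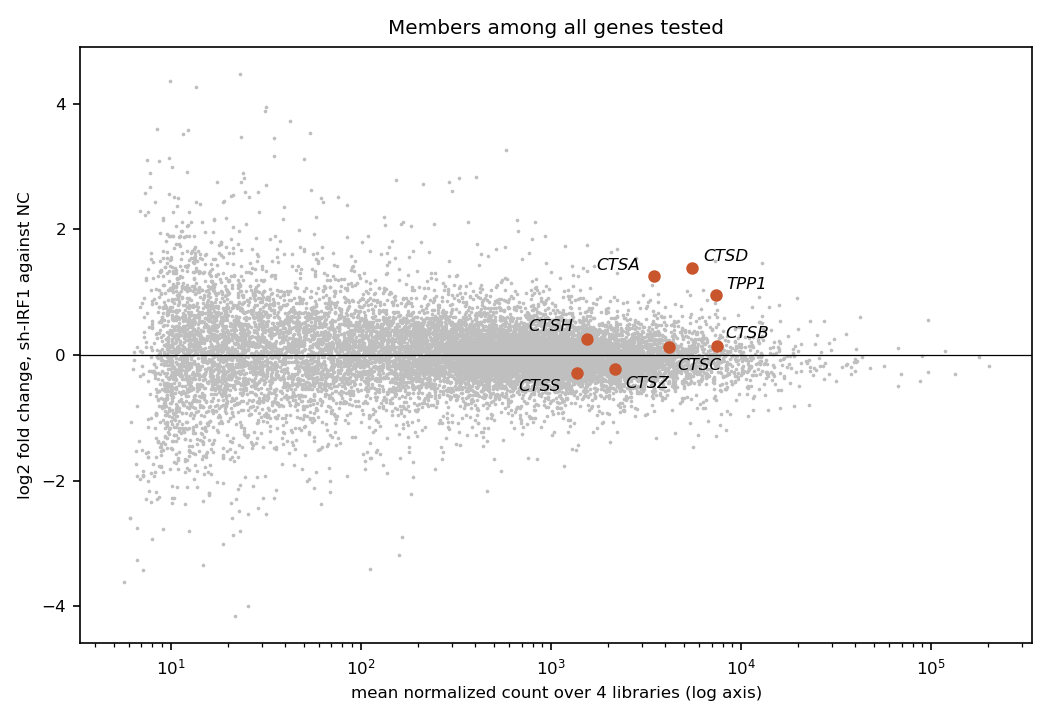
Log2 fold change of sh-IRF1 against NC for the 14120 genes tested (grey) against their mean normalized count over the 4 libraries on a log axis, with the 8 members that passed the filter in orange. CTSD, CTSA and TPP1 lie between 0.95 and 1.39, and the other 5 members lie between -0.28 and 0.25 nearer to 0.

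Levels were compared between genes only per length. In normalized counts per kilobase of merged exons, the order of mean levels in NC was TPP1 at 775, CTSB at 671, CTSD at 537, CTSA at 240, CTSS at 218, CTSC at 162, CTSZ at 122 and CTSH at 102. In NC the libraries of neighbours in this order did not overlap. In sh-IRF1 the order was TPP1 at 1498, CTSD at 1411, CTSB at 741, CTSA at 570, CTSS at 180, CTSC at 175, CTSH at 122 and CTSZ at 103, so CTSD passed CTSB and CTSH passed CTSZ. There CTSS, with 177 and 183, and CTSC, with 179 and 171, overlapped. The sum over the 10 members was 2827 in NC and 4802 in sh-IRF1, and the share of CTSD in it went from 19.0% to 29.4% while that of CTSB went from 23.7% to 15.4%. The order depends on the length chosen. With the longest transcript in place of merged exons, CTSB came first in NC at 1693 and 4 of 8 members kept their place there. With the canonical transcript, a length chosen after the data were seen, CTSC came first in NC at 2147, CTSD came first in sh-IRF1 at 3912, and 1 of 8 kept its place. The share of CTSD was higher in sh-IRF1 by each length, at 13.6% and 23.3% with the longest transcript and at 13.9% and 24.1% with the canonical one.

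Other lysosomal peptidases were mixed. Of the 12 on the list 10 were tested, and 4 rose, 2 fell and 4 did not pass in limma. The median log2 fold change was 0.30, beside the -0.00 of all genes tested. It falls between NAPSA (0.23) and CTSF and CTSV (0.38 each), which had few reads and did not pass, so it shows no direction for the list. Of all genes tested, 20.3% were called higher and 21.9% lower. The lists were chosen with earlier results of these data known, so nothing was read from the counts of this list and those below. CPQ (carboxypeptidase Q) had 608 and 632 in NC and 1144 and 1175 in sh-IRF1, for a log2 fold change of 0.90 (SE 0.0746, adjusted p = 3.43e-14 in limma). PRCP, a serine carboxypeptidase, had 596 and 574 against 845 and 1016, with a log2 fold change of 0.66 (adjusted p = 7.40e-09). CPQ rose well past the spread within either group. PRCP rose past it too, but its sh-IRF1 libraries differed from each other by 4.14 times their counting error. Its log2 fold change ran from 0.53 to 0.79 over the libraries left out. DPP7, a dipeptidyl peptidase, rose by 0.17 on the log2 scale (adjusted p = 4.44e-04). The cysteine cathepsin CTSO rose by 0.56 (adjusted p = 0.00791) but did not pass without sh-IRF1 replicate 1 (adjusted p = 0.124). CTSK and CTSW fell, each with a log2 fold change of -1.24 (adjusted p = 0.0118 and 0.00399 in limma), but at low levels. CTSK, best known from bone-resorbing osteoclasts, had 35.9 and 48.3 in NC and 12.9 and 22.5 in sh-IRF1, and CTSW, known from cytotoxic lymphocytes, had 55.4 ± 11.6 against 23.4 ± 9.24 (SD, n = 2 each). Neither passed without sh-IRF1 replicate 1 (adjusted p = 0.144 and 0.0998), which left 3 of the list called, and CTSK did not pass without NC replicate 2 (0.114) nor CTSW without NC replicate 1 (0.064). SCPEP1, a serine carboxypeptidase of the same family as CTSA, had 1124 and 1128 against 1154 and 1116, a log2 fold change of 0.01 (SE 0.0653, adjusted p = 0.911). CTSF, CTSV and NAPSA had few reads and did not pass, and CTSE and CPVL were not analysed here.

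The partners that work beside the members in the lysosome were 6 genes. Of these 5 rose and 1 did not pass, beside 20.3% of all genes called higher. The median log2 fold change was 0.49. NEU1, the neuraminidase that cathepsin A shields, had 703 and 696 in NC and 1923 and 1831 in sh-IRF1, for a log2 fold change of 1.42 (SE 0.0651, adjusted p = 3.01e-23 in limma). GLB1, the β-galactosidase of the same complex, rose less, by 0.37 (adjusted p = 8.05e-08), with 14.0% of its exonic bases shared. PSAP, the precursor of the saposins that cathepsin D cuts, rose from 5139 ± 88.2 to 7012 ± 78.9 (SD, n = 2 each; log2 fold change 0.45, adjusted p = 3.99e-15). GRN, the precursor of the granulins, rose from 10258 ± 299 to 14833 ± 304 (0.53, adjusted p = 2.11e-20). CD74, the invariant chain that cathepsin S trims, had 7600 and 7544 in NC and 12006 and 11490 in sh-IRF1 (log2 fold change 0.63, adjusted p = 3.25e-22), and so moved against CTSS. IFI30, a lysosomal thiol reductase, had at most 13.3 normalized counts in any library (adjusted p = 0.449).

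The enzymes and receptors that tag and carry lysosomal proteases were higher or did not pass. Of the 9 genes 6 rose and 3 did not pass, beside 20.3% of all genes called higher. The median log2 fold change was 0.25. IGF2R, the larger of the mannose 6-phosphate receptors, had 8242 and 8329 in NC and 11208 and 11332 in sh-IRF1, for a log2 fold change of 0.44 (SE 0.0301, adjusted p = 4.47e-17 in limma). M6PR, the smaller receptor, had 2003 and 2012 against 2386 and 2380 (log2 fold change 0.25, adjusted p = 4.34e-05), with 30.9% of its exonic bases shared. GNPTAB and GNPTG encode subunits of the enzyme that starts the tag. They rose by 0.55 and 0.49 on the log2 scale (adjusted p = 2.14e-09 and 7.53e-05), and GNPTG shares 50.6% of its exonic bases. NAGPA, which uncovers the tag, rose by 0.33 (adjusted p = 5.91e-04), with an adjusted p of 0.0558 without sh-IRF1 replicate 1. Among the GGA adaptors that load the receptors into vesicles, GGA3 had a log2 fold change of 0.16 (adjusted p = 0.038), which was lost without NC replicate 2 (0.357) and without either sh-IRF1 library (0.226 and 0.0873). GGA1 and GGA2 stood at 0.04 and -0.07 and did not pass. SORT1, the alternative sorting receptor sortilin, had 70.8 and 85.3 in NC and 73.6 and 81.5 in sh-IRF1.

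Of the cystatins 4 of 5 were tested, and 3 rose and 1 did not pass, beside 20.3% of all genes called higher. The median log2 fold change was 0.30. CST7 (cystatin F), an inhibitor found in the lysosomes of immune cells that acts on cathepsin C, had 308 and 333 in NC and 653 and 652 in sh-IRF1, for a log2 fold change of 1.03 (SE 0.101, adjusted p = 7.03e-12 in limma). CSTB, an inhibitor inside the cell, had 674 and 573 against 803 and 914 (0.46, adjusted p = 1.59e-05). CST3 (cystatin C), the main secreted inhibitor, rose from 9532 ± 168 to 10413 ± 77.1 (SD, n = 2 each; 0.13, adjusted p = 4.74e-04). CSTA did not pass (0.11, adjusted p = 0.41), and CST6 had too few reads.

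Of the granule serine proteases that cathepsin C trims, 5 of 7 were tested. Here 4 rose and 1 did not pass, beside 20.3% of all genes called higher. The median log2 fold change was 0.30. PRTN3 (proteinase 3) had 18417 and 19054 in NC and 27736 and 26841 in sh-IRF1 (log2 fold change 0.54, SE 0.0251, adjusted p = 4.33e-23 in limma). PRSS57 rose by the same 0.54 (adjusted p = 2.75e-17), AZU1 by 0.30 (adjusted p = 4.40e-11) and ELANE (neutrophil elastase) by 0.13 (adjusted p = 3.48e-04). CTSG (cathepsin G) had 3340 and 3115 against 3472 and 3442 (0.10, adjusted p = 0.0571). The granzymes GZMA and GZMB were not analysed here.

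The MiT/TFE factors were split, with 2 called higher and 2 lower, beside 20.3% and 21.9% of all genes. TFE3 had 956 and 912 in NC and 1198 and 1264 in sh-IRF1 (log2 fold change 0.40, SE 0.0675, adjusted p = 3.34e-06 in limma), and TFEC had 600 and 657 against 859 and 846 (0.44, adjusted p = 1.34e-05). TFEB had 648 and 612 against 523 and 512 (-0.28, adjusted p = 0.00938). Without NC replicate 1 or sh-IRF1 replicate 2, TFEB did not pass (adjusted p = 0.0734 and 0.0658). MITF was scarce, at 53.3 and 54.4 in NC and 29.8 and 31.9 in sh-IRF1 (-0.79, adjusted p = 0.0452), and lost its call without any 1 of the 4 libraries (adjusted p from 0.106 to 0.146). The median over the 4 factors was 0.06.

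**Figure D4:**
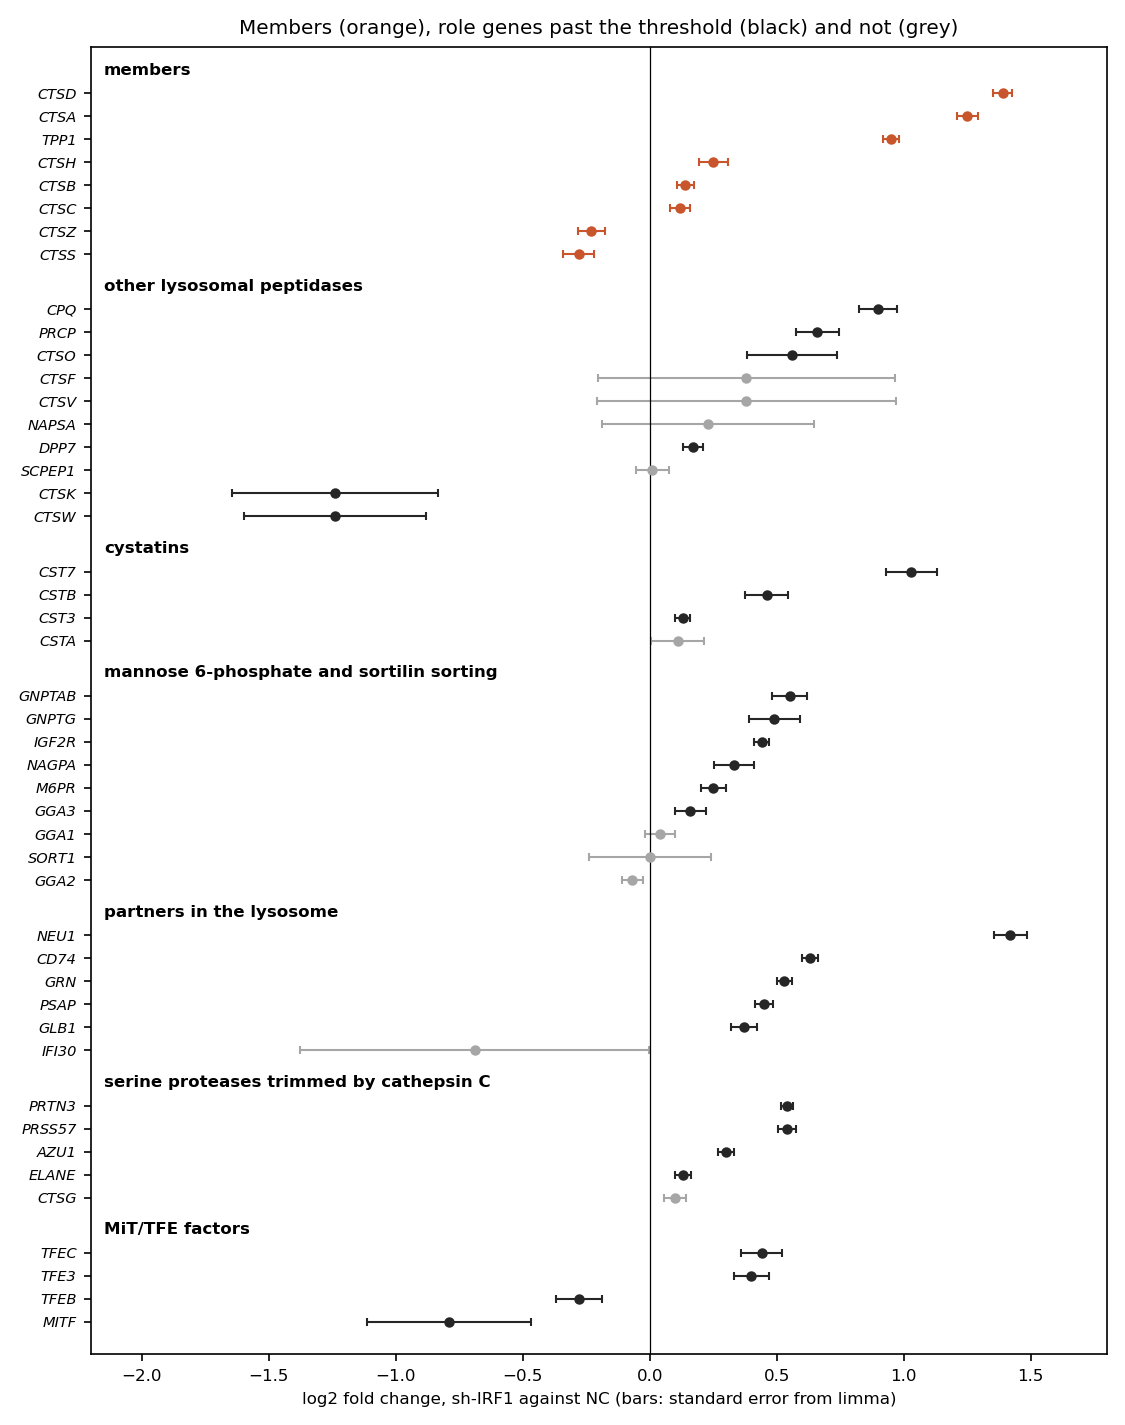
Log2 fold change of sh-IRF1 against NC with its standard error from limma, for the 8 members that passed the filter (orange) and the role lists, with genes at an adjusted p under 0.05 in black and the others in grey. NEU1 at 1.42 lies just above CTSD at 1.39 and CST7 at 1.03 lies between CTSA and TPP1, while CTSK and CTSW at -1.24 carry wide errors.

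The promoter search was extended to the role lists by the same windows. Of all 35116 promoter windows, 7.26% held CACGTG and 0.98% held TCACGTGA. CACGTG was found in 4 of 8 sorting genes with a window (GNPTG, IGF2R, M6PR and NAGPA). Of these, GNPTG, IGF2R and NAGPA also held TCACGTGA, with 3 matches in IGF2R at 133, 75 and 29 bases before the start. All 4 genes with CACGTG rose, in a list of which 6 of 9 genes rose, beside 20.3% of all genes called higher. Without CACGTG in their windows, GNPTAB and GGA3 rose as well, while GGA1 and SORT1 did not pass. CACGTG was found in 4 of 8 other lysosomal peptidases (CTSF, DPP7, NAPSA and SCPEP1). It was also in 2 of 5 partners (NEU1, at 126 bases before the start, and IFI30). Of these, DPP7 and NEU1 rose, while CTSF, NAPSA, SCPEP1 and IFI30 did not pass. Whether CACGTG goes with a change was not tested. SCPEP1 holds TCACGTGA at 28 bases before the start, close to the place it has in CTSA, yet had a log2 fold change of 0.01. PRCP had none and rose by 0.66. None of the 6 granule serine proteases with a window and none of the 4 MiT/TFE genes held CACGTG.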

How the data were processed

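MV4-11 total RNA was sequenced by a service company from 2 NC and 2 sh-IRF1 libraries. The submitters' processing notes name HISAT2 2.0.5 and hg38, and the study names FPKM and DESeq2. The counting tool, annotation and use of strand are not given in the sources used here. The authors deposited a normalized signal, the reads of each gene divided by a size factor per library, here called the normalized count. In every library 100% of the values were whole multiples of 1 step (within 0.01 of a read), so reads are these multiples. There were 0 other columns of per-sample values.

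Of 23622 identifiers 23456 were matched to symbols. The 14120 genes that reached 10 in 2 or more libraries were fitted with limma (3.58.1, R 4.3.3; trend and robust options, 43 prior degrees of freedom) on log2(normalized count + 1), which understates changes of low genes, with Benjamini-Hochberg adjustment over all of them. The members and lists were chosen with earlier results of these data known. Every member, the targeted gene, list genes and genes sharing exonic bases with a member could be named. Exonic bases came from GENCODE 44, promoters from RefSeq. On simulated data for sh-IRF1 against NC over 14048 genes, limma recovered 70 of 100 genes changed by 0.5 on the log2 scale and 82 of 100 changed by 1, and called 4 unchanged genes. The simulation changed only these genes and gave every gene the same variability beyond sampling noise, while 42.2% of genes were called in the data. These rates therefore need not hold for the data. Replicates differed by more than sampling noise (chi-square per gene 2.52 in NC and 2.37 in sh-IRF1), which does not show that they came from separate cultures. All 4 libraries were fitted as separate replicates. Alternatives covered scaling, filter, pseudocount, fold minimum, replicate block, gene length, motif and leaving out each library.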

Additional observations from a re-analysis of the deposited data

How the results depend on the processing

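The members were chosen on this contrast, so their calls under other settings are a description and not a sign of stability. The 8 were called in the same direction under TMM, upper-quartile and total-read scaling, without the filter, with a minimum of 50 and with pseudocounts of 0.5 and 10. Leaving out each library in turn left 7 to 8, since CTSC was lost without NC replicate 2 and without sh-IRF1 replicate 1. Total-read scaling moved the median of all genes by 0.044 on the log2 scale and 6 member values by more than their replicate spread (CTSA 1.29, CTSB 0.19, CTSC 0.16, CTSD 1.44, CTSS -0.23 and TPP1 1.00), with no change of sign.

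With a log2 fold change beyond 0.5 asked as well, the counts called fell to 3 members, 1 cystatin, 1 sorting gene, 3 partners, 2 granule serine proteases and 1 MiT/TFE factor, by construction. By this rule 8.27% of all genes tested were higher and 7.56% lower. Without that minimum, leaving out each library changed how many were called among other lysosomal peptidases, sorting genes, granule serine proteases and MiT/TFE factors. Each such fit leaves 1 library in a group, and the shares above do not apply to it. The sign of the log2 fold change turned for 5 genes, none of which passed the test. Over the libraries left out it ran from -0.21 to 0.96 for CTSF, from -0.16 to 0.61 for NAPSA, from -0.01 to 0.04 for SCPEP1, from -0.04 to 0.27 for CSTA and from -0.14 to 0.13 for SORT1 (0.07 without sh-IRF1 replicate 1), which stood at 0.04 under total reads only. Of the single-gene values outside the members, 416 kept their direction and their side of the threshold, 7 turned sign without passing it, 19 lost their call and 4 gained one. Beside the libraries left out, MITF lost its call under total reads only (adjusted p = 0.0586) and without the filter (0.0671), and GGA3 without the filter (0.0529). CTSG passed under total reads only (adjusted p = 0.00477), the minimum of 50 (0.0449), the replicate block (0.0398) and without NC replicate 1 (0.0104).

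Ranks per length were kept by 4 of 8 members with the longest transcript and by 1 with the canonical transcript, a choice made after seeing the data. The general E-box CANNTG was in 7 members against 2 for CACGTG.

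The labels number the replicates in both groups, but same-numbered libraries did not deviate together. The r was -0.015 over 14120 genes and 0.021 over the 9962 genes above a mean of 100. Sampling noise is part of each deviation, so these values cannot show whether such libraries were prepared together. With the replicate block 8 members were called, MITF lost its call (adjusted p = 0.0523) and CTSG gained it. The planned count tests and the planned identity between proteins were not run. With reads of 0 to 4, CTSL and LGMN could not show a difference at this depth.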
